A study of Danio rerio with 8 samples.

Results

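The parvalbumin family was followed through pools of whole zebrafish embryos collected at 26 hours post fertilisation (hpf). Its 9 members are the rows of the count table that carry the symbols pvalb1 to pvalb9, out of 36351 rows in all, and each of the 9 passed the filter on low counts. Every embryo of the mutant pools was MZ osgep G177A/G177A, so that mother and embryo both had only the G177A allele of osgep. The comparison pools were wild-type. Each genotype has 4 pools, each pool gave 1 library, and no other treatment is given in the labels. The labels give neither the number of embryos in a pool nor the clutch, so SDs and p-values measure only the spread between these pools. The protein made by osgep is the enzyme of KEOPS, a complex that modifies a base of tRNAs for codons starting with A. The family was chosen with the mutant and wild-type counts in view, after pvalb1, pvalb2 and pvalb4 had stood among the genes lowest in the mutant relative to the wild type. Its members' values are therefore given as descriptions, with no p, and the calls that a fit over all genes makes among them are only counted.

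Parvalbumins are small cytosolic proteins that bind calcium through EF-hand loops. In fish they are abundant in fast skeletal muscle, where they take up calcium after a contraction and so speed relaxation, before the calcium is pumped back into the sarcoplasmic reticulum. Other members serve as calcium buffers in neurons and in sensory hair cells. At this stage the trunk muscle of zebrafish is newly formed and has begun to contract.

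Totals ran from 21290942 to 27675104 expected counts per library. The transcript of osgep had 188 to 327 counts in the mutant libraries and 360 to 593 counts in the wild-type libraries. Its log2 fold change was −0.84 with an SE of 0.18 (adjusted p = 0.00826, edgeR quasi-likelihood test with Benjamini-Hochberg adjustment over 22467 genes). The table does not separate alleles, so this value does not check the genotype. Wild-type pool 4 and mutant pool 2 stood apart from their groups in genes of lipoproteins, described with pvalb9 below.

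Of the 9 parvalbumins, 6 were much lower in the mutant pools: pvalb1, pvalb2, pvalb3, pvalb4, pvalb5 and pvalb8. For each of these genes every mutant library lay below every wild-type library, which was the case for 17.6% of all tested genes. The same 6 passed an adjusted p of 0.05 in the edgeR fit over all genes, where 16.3% of the genes tested were called lower and 15.8% higher, 32.2% in all. The family was picked on this contrast, so nothing is read from the calls or from these shares. The mean mutant level ran from 0.209% of wild type for pvalb1 to 16.7% for pvalb8. In the other 3 genes the genotypes overlapped: pvalb6 and pvalb7 had few counts in both, and pvalb9 varied widely between pools. The median log2 fold change of the 9 genes was −4.46, beside 0.0042 for all genes tested. In whole embryos, fewer cells of a type and less RNA per cell cannot be told apart.

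**Figure D1:**
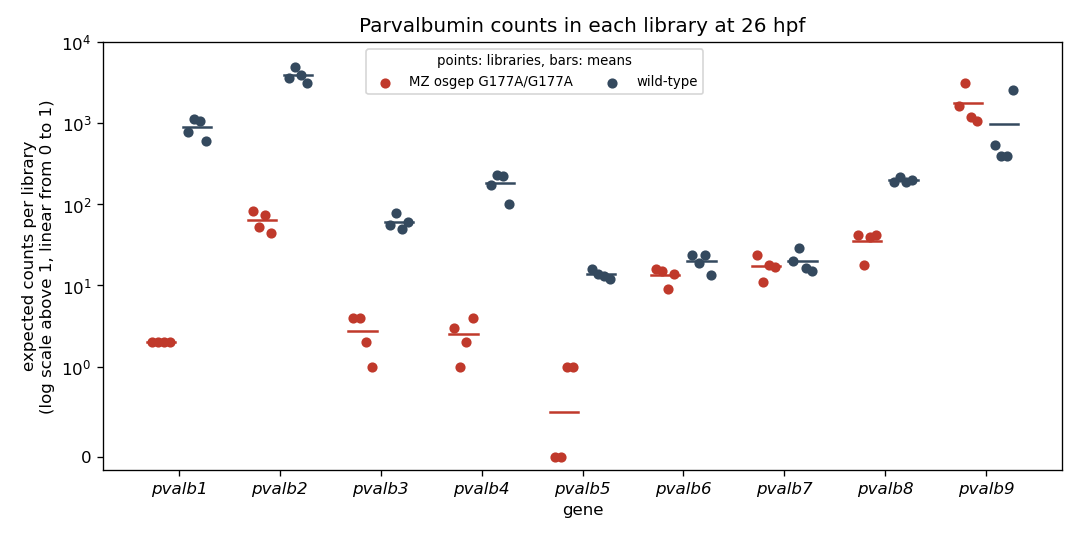
Expected counts of each parvalbumin gene in every library (points) with the mean of 4 libraries (bars), on an axis that is logarithmic above 1 and linear from 0 to 1. The mutant points lie below all wild-type points for 6 genes, and overlap them for pvalb6, pvalb7 and pvalb9.

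The muscle parvalbumins pvalb1 and pvalb2 gave most of the wild-type counts of the family. pvalb1 (ENSDARG00000037789) had 2 counts in each of the 4 mutant libraries, against 785, 1127, 1086 and 611 counts in wild-type pools 1 to 4. Its mean level was 0.0803 ± 0.00789 CPM (counts scaled to a common library total, after TMM) in the mutant and 38.5 ± 12.1 CPM in the wild type (SD, n = 4 each). The log2 fold change was −8.82 (SE 0.35), and the summed counts gave a wild-type level 477 times the mutant one, with a 95% exact counting interval of 241.6 to 1105. At 2 counts per library the mutant level sits under 3 counts, the limit that a count of 0 would allow, which was 0.107 to 0.134 CPM in the mutant libraries. Such intervals and limits cover counting error only. With the same count in every mutant library, the mutant SD of pvalb1 reflects library scaling and leaves counting error out.

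pvalb2 (ENSDARG00000002768) was low but clearly counted in the mutant. It had 84, 52, 74 and 45 counts in mutant pools 1 to 4, against 3666, 5004, 4012 and 3147 counts in wild-type pools 1 to 4. The mutant mean of 2.57 ± 0.815 CPM was 1.54% of the wild-type mean of 168 ± 33.6 CPM (log2 fold change −6.03, SE 0.28). Set against its own wild type, the remaining level of pvalb2 was thus higher than the 0.209% of pvalb1. Levels of different genes are not compared as such, because counts grow with transcript length and no lengths of the authors' gene models were used here.

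pvalb4 (ENSDARG00000024433), also a muscle parvalbumin, had 3, 1, 2 and 4 counts in mutant pools 1 to 4. In wild-type pools 1 to 4 it had 175, 228, 227 and 100.4 counts. The mutant mean was 1.25% of wild type, 0.0976 ± 0.0451 against 7.83 ± 2.91 CPM (log2 fold change −6.23, SE 0.45). The counting interval of the ratio ran from 41.7 to 162 around 77.1. The 4 wild-type estimates of pvalb4 were not whole numbers, as happens where RSEM divides reads between genes, so its value is less certain. The estimates of pvalb1, pvalb2, pvalb3, pvalb5, pvalb8 and pvalb9 were whole in all 8 libraries.

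pvalb3 and pvalb5 were lower by a smaller factor and had few counts. pvalb3 (ENSDARG00000022817) had 4, 4, 2 and 1 counts in mutant pools 1 to 4, against 56, 78, 50 and 61 counts in wild-type pools 1 to 4. Its log2 fold change was −4.46 (SE 0.42), and the wild-type level was 23.5 times the mutant one with a counting interval of 12.9 to 47.8. pvalb5 (ENSDARG00000032836) had no count in mutant pools 1 and 2 and 1 count in each of mutant pools 3 and 4, against 16, 14, 13 and 12 counts in wild-type pools 1 to 4. With 2 mutant counts in all, its ratio of 29.1 had a wide counting interval of 7.67 to 246, and the log2 fold change was −4.56 (SE 0.61). Both genes separated the genotypes in every library.

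pvalb8, known in zebrafish from hair cells of the ear and lateral line, was lower in the mutant. Whether its counts in these whole-embryo pools came from hair cells was not tested. pvalb8 (ENSDARG00000037790) had 42, 18, 40 and 42 counts in mutant pools 1 to 4, against 189, 220, 187 and 199 counts in wild-type pools 1 to 4. The mean was 1.40 ± 0.416 CPM in the mutant and 8.39 ± 0.480 CPM in the wild type, or 16.7% of wild type (log2 fold change −2.58, SE 0.24). Mutant pool 2 was the lowest library, and the others of its genotype lay close together. The 16.7% that remained was more than in the 5 genes described before, which kept 0.209% to 4.47% of their wild-type means.

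Marker genes of hair cells went both ways beside pvalb8. Of the 14 tested genes of this list, 3 fell, 2 rose and 9 did not pass, with a median log2 fold change of −0.13. Over all genes tested, 16.3% were called lower and 15.8% higher, so nothing is read from these counts. The summed level of the list was 56.4 to 74.2 CPM in the mutant libraries and 70.6 to 74.9 CPM in the wild-type libraries. The unconventional myosin gene myo7aa, the most abundant with myo6b and atoh1a, stood at 13.9 ± 3.61 CPM in the mutant and 14.0 ± 0.910 CPM in the wild type, and myo6b at 10.8 ± 2.72 and 12.7 ± 1.103 CPM in mutant and wild type. Neither passed. The transcription factor gene atoh1a, which starts the hair cell programme and also acts in the hindbrain, fell to 7.14 ± 1.15 CPM in the mutant against 16.0 ± 1.07 CPM in the wild type (adjusted p = 0.00061, edgeR). The otoferlin gene otofa, whose protein serves vesicle release, rose to 11.1 ± 1.03 CPM in the mutant against 2.48 ± 0.213 CPM in the wild type (adjusted p = 2.28e-05, edgeR).

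pvalb9, also known from hair cells in zebrafish, was the only member whose mean was higher in the mutant. Whether its counts in these pools came from hair cells was not tested. pvalb9 (ENSDARG00000071601) had 1644, 3116, 1216 and 1072 counts in mutant pools 1 to 4. In wild-type pools 1 to 4 it had 537, 394, 399 and 2562 counts. Each mutant library lay above wild-type pools 1, 2 and 3, while wild-type pool 4 lay above 3 of the mutant libraries. The means were 73.2 ± 45.7 CPM in the mutant and 39.6 ± 40.6 CPM in the wild type, with a log2 fold change of 0.89 (SE 0.66). Without wild-type pool 4 the wild-type mean was 19.3 ± 4.03 CPM (SD, n = 3), and the log2 fold change was 1.92 (SE 0.45). With wild-type pool 4 kept and mutant pool 2 left out, the log2 fold change was 0.38 (SE 0.65).

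Genes for lipoproteins and plasma proteins, which the yolk syncytial layer and the liver make in fish embryos, are given beside pvalb9 for each library. This list was added after the values were seen, when its members apoa4b.2 and f2 came out among the genes most like pvalb9, so a likeness between the list and pvalb9 follows in part from that choice and supports nothing. All 25 of its matched genes had counts. Their summed level was 5962, 15119, 4708 and 3951 CPM in mutant pools 1 to 4, and 1764, 1239, 1602 and 6616 CPM in wild-type pools 1 to 4. The 8 libraries stand in the same order by this sum as by pvalb9, with mutant pool 2 first, wild-type pool 4 next and wild-type pool 2 last. The part of these tissues in the pvalb9 counts was not tested.

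The edgeR fit with every library kept called 16.3% of all tested genes lower and 15.8% higher. Of the 22 tested genes of the lipoprotein and plasma protein list, 2 rose, 2 fell and 18 did not pass, and without wild-type pool 4 the number higher was 14. With any other single library left out of the edgeR fit the number higher was 0 to 2, and it was 0 with library totals alone, with no low-count filter and with the replicate block. By DESeq2 it was 6. Without mutant pool 3 or mutant pool 4 the number lower was 1. The apolipoprotein genes apoeb (1528 ± 882 CPM in the mutant and 564 ± 364 CPM in the wild type), apoa1b (1653 ± 1158 and 303 ± 403 CPM in mutant and wild type) and apobb.1 (1382 ± 1264 and 367 ± 419 CPM in mutant and wild type) were its most abundant members, and none of these passed. apoea fell, with 0.315 ± 0.227 CPM in the mutant and 8.76 ± 8.28 CPM in the wild type (adjusted p = 0.00202, edgeR). Wild-type pool 4 had 21.1 CPM of apoea, beside 3.41 to 5.33 CPM in the other wild-type pools. Without it the wild-type mean was 4.64 ± 1.07 CPM (SD, n = 3) and the log2 fold change −3.89, against −4.81 with it.

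**Figure D2:**
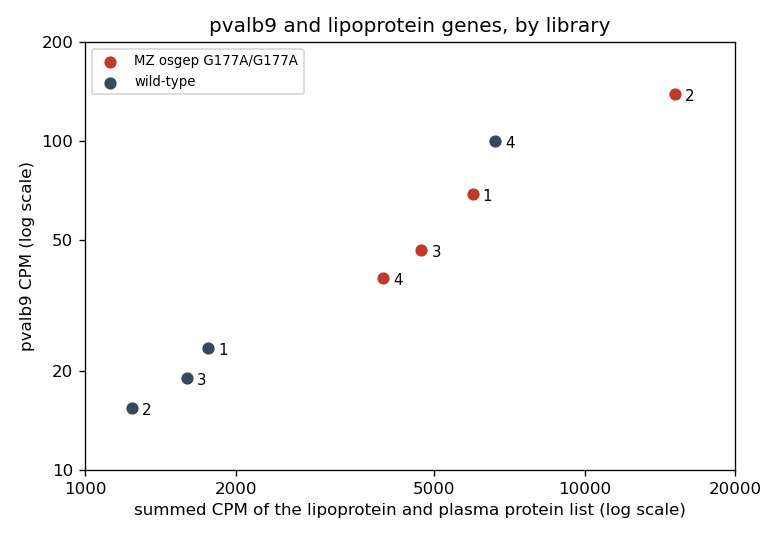
Level of pvalb9 (vertical axis, CPM) against the summed level of the lipoprotein and plasma protein list (horizontal axis, CPM), both logarithmic, with 1 point per library numbered by its pool. The order of the 8 libraries is the same on both axes, and wild-type pool 4 lies among the mutant pools. The list was chosen after apoa4b.2 and f2 were found to be like pvalb9 in these libraries.

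The 2 remaining members, pvalb6 and pvalb7, were counted at a low level in both genotypes. pvalb6 (ENSDARG00000009311) had 16, 14.96, 9 and 14 counts in mutant pools 1 to 4, against 24, 19, 24 and 13.3 counts in wild-type pools 1 to 4. Its log2 fold change was −0.65 (SE 0.37). pvalb7 (ENSDARG00000034705), known in zebrafish as a marker of cerebellar Purkinje cells, had 24.0, 11.1, 18.1 and 17.0 counts in mutant pools 1 to 4, against 20.3, 29.4, 16.6 and 15.01 counts in wild-type pools 1 to 4 (log2 fold change −0.28, SE 0.34). Whether the counts of pvalb7 in these pools came from Purkinje cells was not tested. The genotypes overlapped in both pvalb6 and pvalb7. The counting interval of the wild-type to mutant ratio was 1.09 to 2.25 for pvalb6 and 0.877 to 1.71 for pvalb7, so that of pvalb6 does not hold 1 and that of pvalb7 does. These intervals leave out the spread between pools, which the SEs of pvalb6 and pvalb7 include. Estimates of pvalb7 were not whole in any library, and those of pvalb6 in 2 of them.

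As a sum, the family had 67.9, 150.3, 53.2 and 43.3 CPM by library total in mutant pools 1 to 4, and 229, 289.7, 283 and 277 in wild-type pools 1 to 4. Without pvalb9 the sum was 4.55 to 6.54 in the mutant libraries and 171 to 274 in the wild-type libraries on the same scale. Most parvalbumin counts came from pvalb9 in the mutant and from pvalb2 and pvalb1 in the wild type. pvalb9 gave 90.4%, 96.8%, 89.1% and 89.5% of the family's counts in mutant pools 1 to 4, and 9.82%, 5.54%, 6.63% and 38.1% in wild-type pools 1 to 4. pvalb2 gave 1.62% to 5.42% in the mutant libraries and 46.8% to 70.3% in the wild-type libraries. The widest 95% Wilson interval of the pvalb9 share in a mutant library was that of pool 4, 87.6% to 91.1%. These are shares of counts, not of molecules.

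**Figure D3:**
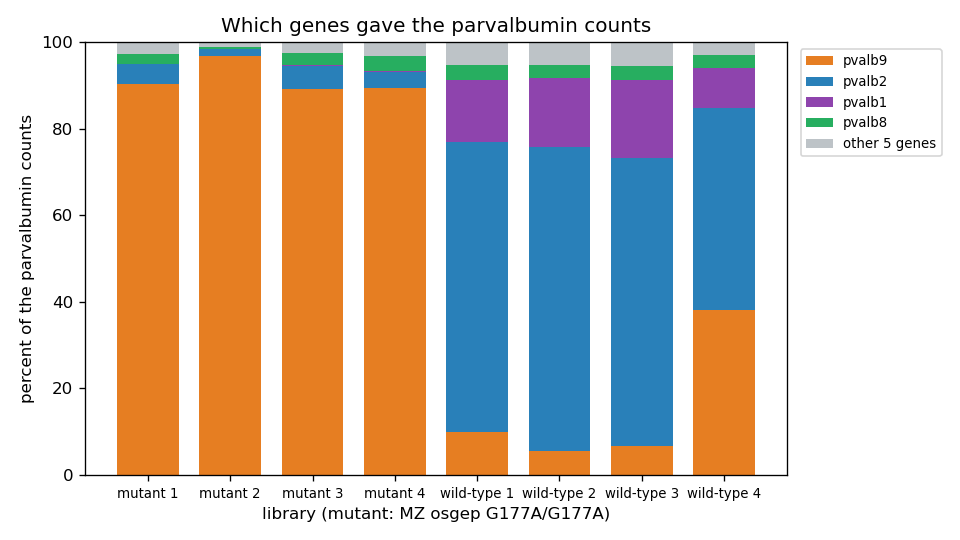
Percent of each library's parvalbumin counts that came from pvalb9, pvalb2, pvalb1, pvalb8 and the other 5 genes. pvalb9 gives 89.1% to 96.8% in the mutant libraries and 5.54% to 38.1% in the wild-type libraries, where pvalb2 is the largest part.

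The muscle parvalbumins were lower in the mutant by more than most contractile and energy genes of fast fibres. With 16.3% of all tested genes called lower and 15.8% higher, 23 of the 25 tested fast muscle fibre genes fell and 2 did not pass. The fast muscle fibre list had a median log2 fold change of −2.49. Its summed level was 2148 to 2305 CPM in the mutant libraries and 8608 to 12124 CPM in the wild-type libraries. The most abundant were the myosin heavy chain gene myhz1.3, at 126 ± 19.7 CPM in the mutant and 1778 ± 488 CPM in the wild type, and the myosin light chain gene mylpfa, at 182 ± 41.2 and 1395 ± 285 CPM in mutant and wild type. The tropomyosin gene tpma stood at 233 ± 31.5 CPM in the mutant and 878 ± 243 CPM in the wild type (adjusted p = 1.78e-05, 5.12e-05 and 0.00038 in this order, edgeR). No gene of this list had a lower log2 fold change than pvalb1, and only tnni2a.4, a fast troponin I gene, was lower than pvalb2 and pvalb4. In contrast, 11 of the 25 were lower than pvalb8. The family was chosen after pvalb1, pvalb2 and pvalb4 had stood among the lowest genes, so their rank here follows from that choice.

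**Figure D4:**
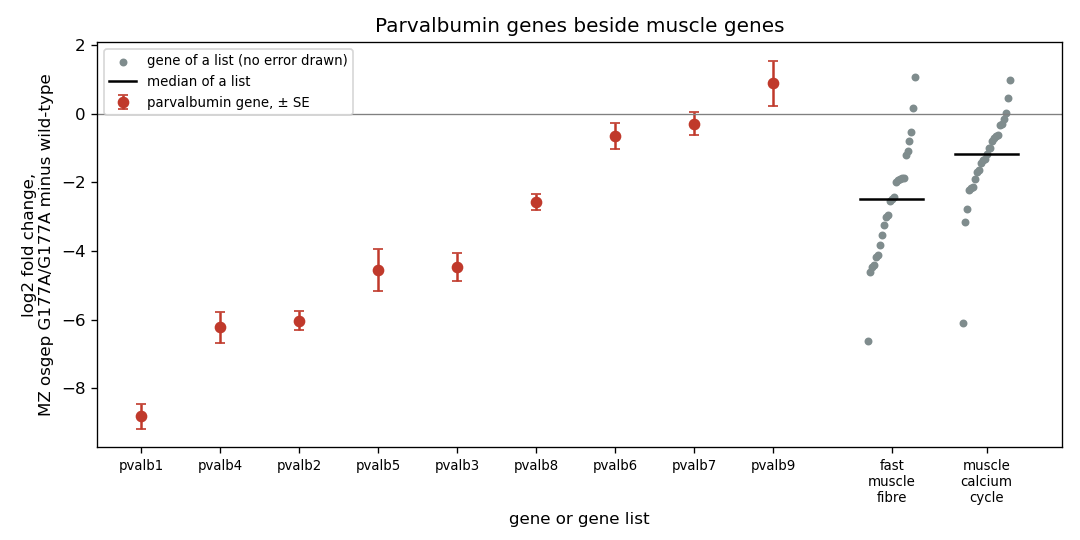
Log2 fold change, mutant minus wild type, of each parvalbumin gene with its SE, ordered by value, beside each tested gene of the fast muscle fibre and muscle calcium cycle lists and their medians of −2.49 and −1.17. pvalb1 lies below every gene of both lists, and pvalb9 lies above 0. The family was chosen after pvalb1, pvalb2 and pvalb4 had stood among the lowest genes of this contrast.

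Set against the summed fast muscle genes of the same library, 5 parvalbumins were still lower in the mutant. Per 1000 CPM of these genes, pvalb1 measured 0.0359 ± 0.00437 CPM in the mutant and 3.67 ± 1.199 CPM in the wild type (SD, n = 4 each), a 102-fold difference. pvalb2 measured 1.15 ± 0.351 CPM in the mutant and 15.99 ± 3.65 CPM in the wild type on this scale, a 13.9-fold difference. The ratio to fast muscle genes differed 17.5-fold for pvalb4, 6.94-fold for pvalb5 and 4.73-fold for pvalb3, each lower in the mutant and with no overlap between the genotypes. These mutant values rest on 2 counts per library for pvalb1, 1 to 4 for pvalb3 and pvalb4, and 0 or 1 for pvalb5. The folds of these genes are therefore uncertain, and the mutant SD of pvalb1 leaves counting error out. For pvalb8 the ratio was 0.620 ± 0.171 CPM in the mutant and 0.802 ± 0.130 CPM in the wild type, and the libraries overlapped. pvalb6, pvalb7 and pvalb9 were 2.89-fold, 3.82-fold and 9.06-fold higher in the mutant on this scale. The fast muscle sum itself was 4.74 times as high in the wild type, a log2 difference of −2.23 (mutant minus wild type). A gene at equal CPM in both genotypes is therefore higher in the mutant on this scale. The list's median log2 fold change of −2.49 lies below −2.23, so many fast muscle genes are also lower on it. Of its 25 tested genes, 3 had a lower log2 fold change than pvalb3 and 2 a lower one than pvalb5. The family was chosen on this contrast, so nothing is read from these ratios. In plain CPM the mutant means of pvalb6 and pvalb7 were 63.5% and 82.1% of wild type. For pvalb9 the wild-type libraries ran from 1.27 to 8.77 CPM per 1000 CPM of fast muscle genes. In plain CPM the genotypes overlapped for pvalb6, pvalb7 and pvalb9. The share of all genes without overlap on the ratio scale was not computed, so nothing is read from overlap on it.

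**Figure D5:**
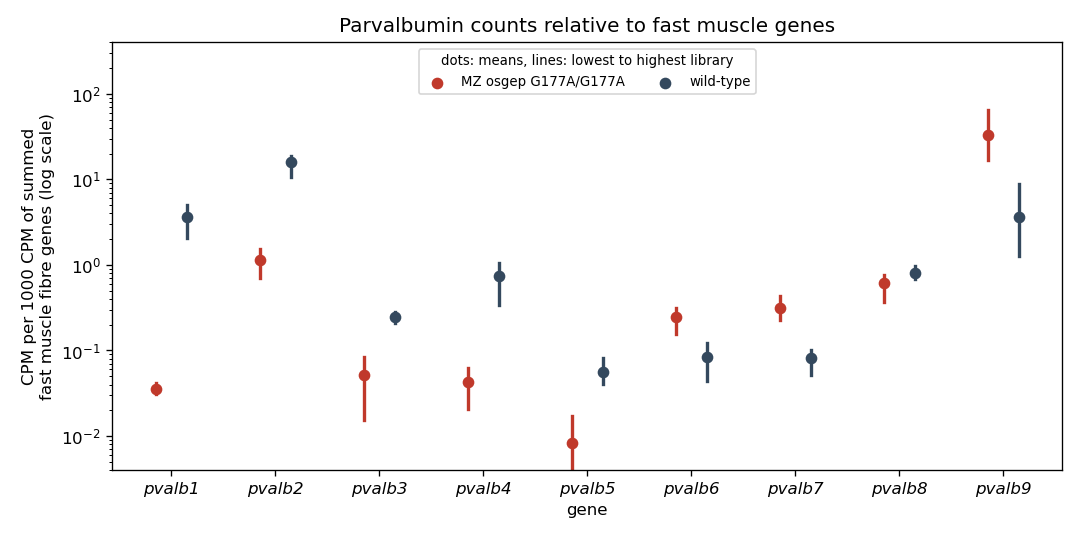
CPM of each parvalbumin gene per 1000 CPM of the summed fast muscle fibre genes of the same library, on a logarithmic axis, with the mean (dot) and the lowest to highest of 4 libraries (line). The line of pvalb5 in the mutant runs to 0 and is cut by the axis, and the lines of the genotypes overlap for pvalb8 alone. The fast muscle sum is lower in the mutant, which raises the mutant values on this axis. In plain CPM pvalb6, pvalb7 and pvalb9 overlap and pvalb8 does not.

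Slow muscle fibre genes differed less. Of the 15 tested, 10 fell and 5 did not pass, with a median log2 fold change of −0.88. The share of all tested genes called lower was 16.3%, and 15.8% were called higher. The slow myosin gene smyhc1 did not pass, at 1020 ± 208 CPM in the mutant and 1139 ± 435 CPM in the wild type. The light chain gene myl13 stood at 253 ± 34.4 CPM in the mutant and 465 ± 50.02 CPM in the wild type, and the troponin T gene tnnt2c at 163 ± 41.8 and 448 ± 137 CPM in mutant and wild type (adjusted p = 0.00139 and 0.00379, edgeR).

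In the edgeR fit, 16.3% of all tested genes were called lower and 15.8% higher. Among the genes that release and recover calcium in muscle, 18 of 25 tested fell, 2 rose and 5 did not pass, with a median log2 fold change of −1.17. atp2a1, the calcium pump of fast fibres, which returns calcium to the reticulum, fell to 402 ± 139 CPM in the mutant against 1758 ± 856.5 CPM in the wild type (adjusted p = 0.0037, edgeR). The 2 that rose were atp2a2b, a calcium pump gene of slow and heart muscle, at 255 ± 23.3 CPM in the mutant and 184 ± 16.0 CPM in the wild type, and asph, at 517 ± 70.2 and 262 ± 18.01 CPM in mutant and wild type (adjusted p = 0.00849 and 0.000611, edgeR). asph encodes both a hydroxylase found in many tissues and the triad protein junctin. Only casq1b, for calsequestrin, the calcium store protein of the reticulum, was lower in log2 fold change than pvalb2 among these 25 genes, and none was lower than pvalb4. As with the fast muscle list, this order follows from how the family was chosen.

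Other cytosolic EF-hand genes went both ways. Of 46 tested, 15 fell, 10 rose and 21 did not pass, with a median log2 fold change of −0.02. Without wild-type pool 2, and likewise without wild-type pool 3, 9 fell and 6 rose, and without wild-type pool 1 the number that rose was 6. With every library kept, 16.3% of all genes tested were called lower and 15.8% higher. The calmodulin gene calm3b stood at 695 ± 117 CPM in the mutant and 691 ± 86.3 CPM in the wild type and did not pass. calm2b fell to 451 ± 67.5 CPM in the mutant against 628 ± 74.6 CPM in the wild type, and the neurocalcin gene ncalda to 106 ± 8.06 CPM against 159 ± 13.9 CPM (adjusted p = 0.0322 and 0.00229, edgeR). calm1b rose to 188 ± 16.4 CPM in the mutant against 33.2 ± 5.20 CPM in the wild type (adjusted p = 8.13e-06, edgeR). Calmodulin genes encode near-identical proteins, and how well reads were divided among the genes was not checked.

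The members varied unequally between pools of the same genotype. In the wild type the coefficient of variation of CPM was 5.72% for pvalb8 and 12.7% for pvalb3, where counting alone gives 7.09% and 12.8%. It was 20.02% for pvalb2, 31.3% for pvalb1 and 37.2% for pvalb4, where counting alone gives 1.59%, 3.33% and 7.40%. The median over all tested genes was 18.99% in the wild type, close to that of pvalb2. On the log2 scale, wild-type pool 4 lay below the wild-type mean by −0.63 in pvalb1, −0.42 in pvalb2 and −0.91 in pvalb4, and pool 3 lay above it by 0.48, 0.21 and 0.56 in the same genes. Other muscle genes went both ways in wild-type pool 4. mylpfa stood there at 999.8 CPM, beside 1398 to 1662 CPM in the other wild-type pools, casq1b at 8.18 CPM beside 12.7 to 13.96 CPM, pfkmb at 4.78 CPM beside 5.84 to 7.38 CPM and nmrk2 at 22.1 CPM beside 34.6 to 46.7 CPM. casq1b, pfkmb and nmrk2 are among the genes most like pvalb2 or pvalb4, described below, by a measure that includes this library. Their low level here thus follows in part from that choice. tnni2a.4, also among the genes most like pvalb2, stood at 66.3 CPM beside 52.5 to 96.3 CPM. In the same library myhz1.3 was high, at 2376 CPM beside 1264 to 1946 CPM, and the summed fast muscle list stood at 11444 CPM beside 8608 to 12124 CPM. pvalb9 had a coefficient of variation of 62.4% in the mutant and 103% in the wild type, above 90.9% and 98.3% of all tested genes.

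The genes most like each member were sought by the root mean square difference of centred log2 CPM over the 8 libraries, among genes with a proper symbol. For pvalb2 they were casq1b (0.30), the phosphofructokinase gene pfkmb (0.37) and tnni2a.4 (0.48). For pvalb4 they were pfkmb (0.37), nmrk2 (0.53), a nicotinamide riboside kinase gene, and pvalb2 (0.54). pvalb1 had no gene within 0.5, and its nearest were tnni2a.4 (0.76), pvalb2 (0.96) and pfkmb (1.17). For pvalb3 they were kcnj1a.5 (0.26) and kcnj1a.6 (0.26), which encode potassium channels, and the fast myosin gene myhz1.2 (0.31). For pvalb8 they were tnni4b.2 (0.17), a troponin I gene, nkx1.2lb (0.20) and the calcium/calmodulin kinase gene camk2a (0.21), out of 149 genes within 0.5. For pvalb9 they were npc2 (0.15), which encodes a sterol carrier of lysosomes, the apolipoprotein gene apoa4b.2 (0.18) and the prothrombin gene f2 (0.24), out of 101 within 0.5. The measure is dominated by the genotype difference for all but pvalb9. Of these 18 pairs, 12 stayed among the nearest 3 when the count added before the log was 0.5 in place of 2. None of the 18 did so when the 4 wild-type libraries were used alone.

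By gene order in another assembly, RefSeq GRCz12tu, 7 of the 9 genes lie in a pair of clusters. On chromosome 3 the order is pvalb8, pvalb4, pvalb1, pvalb5, with pvalb6 elsewhere on that chromosome. On chromosome 12 it is pvalb9, pvalb3, pvalb2, and pvalb7 is on chromosome 22. All 4 genes of the chromosome 3 cluster were lower in the mutant, and so were pvalb3 and pvalb2 on chromosome 12, while their neighbour pvalb9 was not. The family was chosen after pvalb1, pvalb2 and pvalb4 had stood among the lowest genes, so nothing is read from these positions. Of the protein-coding genes that flank the clusters, 3 were tested. Over all genes tested, 16.3% were called lower and 15.8% higher, so nothing is read from the calls among the flanking genes. aimp2, next to pvalb8 and encoding a scaffold of the tRNA synthetase complex, rose to 149 ± 19.2 CPM in the mutant against 66.1 ± 5.35 CPM in the wild type (adjusted p = 0.000181, edgeR). lmtk2, next to pvalb5, fell to 41.3 ± 8.71 CPM against 59.7 ± 8.70 CPM (log2 fold change −0.53, SE 0.17, adjusted p = 0.0461, edgeR). ccz1, next to pvalb9, did not pass, at 21.0 ± 3.40 CPM in the mutant and 20.2 ± 4.42 CPM in the wild type.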

How the data were processed

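RNA of 8 pools of whole embryos was sequenced after depletion of ribosomal RNA and random-primed cDNA synthesis, per the labels' protocols. The deposited table holds RSEM expected counts per gene, not scaled between libraries. Trimmomatic, STAR 2.7, RSEM and the build danRer11 are named per the submitters' processing notes, whereas no source used here gives their settings, the annotation or whether strand was used. Groups and pool numbers came from the titles.

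Expected counts were rounded, filtered with filterByExpr and scaled by TMM, which left 22467 genes. Genotype was tested two-sided with the quasi-likelihood test of edgeR 4.0.16 in R 4.3.3 (robust, Benjamini-Hochberg, threshold 0.05), and the procedure was checked on simulated data. SE is the log2 fold change over the square root of F. DESeq2 1.42.0 served as an alternative. For pvalb1 and pvalb5, which had few mutant counts, its SEs were 0.59 and 1.13, against 0.35 and 0.61 in edgeR. The SEs given for members with so few counts may therefore be too small. No pair of libraries was within sampling noise (lowest chi-square per degree of freedom 6.14).

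The members and the 9 gene lists were chosen with earlier results of these data known. Of 218 listed symbols 212 were matched. No list was tested as a set, and its counts stand beside 16.3% of all genes called lower and 15.8% higher. From each list the 3 most abundant genes and the gene with the smallest p in the rarer direction were named, and for members of at least 1 CPM on average the 3 genes most alike, passing over clone identifiers. The genes gad1a, gad1b, gad2 and slc32a1 were named outside this rule. RefSeq GRCz12tu served for names and gene order. Sequences were not used here.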

Additional observations from a re-analysis of the deposited data

Results flagged for a closer look

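Levels were screened for a library far from the other 3 of its genotype, in 40 groups of 4 libraries, where chance marks about 5% of groups, and 3 were marked. pvalb9 in wild-type pool 4 stood at 100.3 CPM, against 15.4 to 23.5 CPM in the other wild-type pools. The summed lipoprotein and plasma protein list in the same library stood at 6616 CPM, against 1239 to 1764 CPM. That list was added after apoa4b.2 and f2 were found to be like pvalb9, so these marks are not independent. pvalb3 in wild-type pool 2 stood at 3.05 CPM, against 2.38 to 2.45 CPM, on 78 counts where the other wild-type pools had 50 to 61. The wild-type coefficient of variation of pvalb3 was 12.7%, where counting alone gives 12.8%.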

How the results depend on the processing

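The count of 6 members called lower was the same under RLE size factors, library totals alone, DESeq2, no low-count filter, the replicate block and each library left out, and the median log2 fold change of the members ran from −4.53 (DESeq2) to −4.45 (RLE), and from −4.50 to −4.15 with a library left out. The log2 difference of the family sum, −1.78 with all members, was −0.40 without pvalb2, its most abundant member, and −5.40 without pvalb9, an alternative chosen after seeing the data. With a library left out it ran from −2.30 to −1.57. The calls of single members changed only for pvalb9 without wild-type pool 4, where its log2 fold change was 1.92, over a range of 0.38 to 1.92. Over all genes the calls lower ran from 2680 to 4522 and those higher from 2630 to 4080 with a library left out. The labels do not say whether pools of the same number belong together. Same-numbered correlations were 0.65, 0.17, −0.27 and 0.09, and differently numbered ones ran from −0.65 to 0.68, so a pairing can be neither shown nor excluded. The replicate block gave 3668 lower and 3525 higher against 3665 and 3560, with a median of −4.50 over the members. For pvalb1, pvalb3, pvalb4 and pvalb5 the depth of the mutant libraries, 0 to 4 counts, limits the size of the difference.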

Other observations

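Other lists touch tissues in which parvalbumins are known. Of the 20 tested transcription factor and fusion genes of the myogenic lineage, 6 fell, 1 rose and 13 did not pass, with a median log2 fold change of −0.14. Over all genes tested, 16.3% were called lower and 15.8% higher. myog, which drives muscle differentiation, stood at 92.2 ± 6.496 CPM in the mutant and 88.4 ± 8.33 CPM in the wild type, and mef2d at 191 ± 50.1 and 184 ± 34.9 CPM in mutant and wild type, and neither passed. mef2ca, a regulator of sarcomere genes, fell to 130 ± 15.9 CPM in the mutant against 196 ± 19.3 CPM in the wild type, and prdm1a, a regulator of the slow fibre fate, rose to 70.1 ± 4.43 CPM against 44.2 ± 4.40 CPM (adjusted p = 0.0057 and 0.00124, edgeR). Of 11 heart muscle genes, 4 rose, 1 fell and 6 did not pass, with a median of 0.34. The number that rose was 2 without wild-type pool 2, without wild-type pool 3 and without mutant pool 2, and 2 fell without mutant pool 1. The cardiac myosin gene myh7 rose to 55.4 ± 11.8 CPM against 34.3 ± 7.57 CPM and the troponin C gene tnnc1a fell to 2.58 ± 0.180 CPM against 4.63 ± 1.02 CPM (adjusted p = 0.0274 and 0.0131, edgeR). myl7, the atrial and ventricular light chain gene, stood at 13.1 ± 3.28 CPM in the mutant and 17.0 ± 2.30 CPM in the wild type, and actc1a at 807 ± 204 and 1016 ± 433 CPM in mutant and wild type, and neither passed.

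The neuronal lists also stand beside 16.3% of all tested genes called lower and 15.8% called higher. Of the 14 tested genes of inhibitory neurons and Purkinje cells, 7 fell, 1 rose and 6 did not pass, with a median of −1.20. pvalb7 is known as a marker of Purkinje cells. The next genes of this list were singled out after their values were seen. Among genes of GABA synthesis, gad1b fell (0.973 ± 0.268 CPM in the mutant and 8.45 ± 2.496 CPM in the wild type). So did gad2 (3.19 ± 0.542 and 11.2 ± 0.390 CPM in mutant and wild type). slc32a1, which loads GABA and glycine into vesicles, also fell (4.83 ± 0.188 and 13.4 ± 3.79 CPM in mutant and wild type). The adjusted p of gad1b, gad2 and slc32a1 were 0.000194, 9.8e-05 and 0.000946 (edgeR). In contrast gad1a, also a gene of GABA synthesis, did not pass (2.18 ± 1.21 and 3.13 ± 1.08 CPM in mutant and wild type). The gene that rose was ca8, known as a Purkinje cell marker, at 28.8 ± 4.59 CPM in the mutant and 16.9 ± 2.89 CPM in the wild type (adjusted p = 0.00704, edgeR). Whether these pools held Purkinje cells, or the counts of ca8 came from them, was not tested. pax2a (50.5 ± 5.09 CPM in the mutant and 50.7 ± 3.28 CPM in the wild type) and lhx5 (16.1 ± 2.46 and 17.8 ± 2.30 CPM in mutant and wild type) did not pass. Of 24 genes of postmitotic neurons 18 fell, 1 rose and 5 did not pass, with a median of −0.89. The tubulin gene tubb5 fell to 145 ± 23.5 CPM in the mutant against 399.9 ± 48.8 CPM in the wild type and stmn2b to 37.4 ± 3.38 CPM against 76.2 ± 13.9 CPM (adjusted p = 0.000214 and 0.00104, edgeR). The neurofilament gene nefla rose to 4.11 ± 3.06 CPM against 0.305 ± 0.103 CPM (adjusted p = 0.00136, edgeR), and elavl3 did not pass, at 449 ± 44.2 CPM in the mutant and 550.4 ± 42.4 CPM in the wild type.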
